A study of Mus musculus with 84 samples.

Results

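The mRNAs of the cytosolic ribosomal proteins were examined in 84 mice, in tissue of the amygdala's central nucleus (CeA). Members were the genes whose symbol is Rpl or Rps followed by a number and optional letters, with a median of at least 10 CPM (counts scaled to library size) over the animals. The rule left out S6 kinases and named pseudogenes. Of 80 genes with such a symbol, 73 reached that level, among 43629 genes in the table and 10150 at or above the same level. The members comprised 31 genes of the small (40S) subunit and 42 of the large (60S) subunit.

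The mice came from the HS-CC, a heterogeneous stock made by crossing the founders of the Collaborative Cross, and are outbred. The 43 females and 41 males all chose between water and 10% ethanol for 13 weeks, from a median age of 15 weeks, so every group had drunk ethanol. The CeA was laser-dissected and each animal gave 1 poly(A)-selected RNA library. Preference, the share of fluid taken from the ethanol tube, averaged 0.272 ± 0.17 over the weeks in females (SD, n = 43) and 0.21 ± 0.152 in males (SD, n = 41). In week 13 it was 0.326 ± 0.214 in females and 0.219 ± 0.196 in males.

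Up to 3 animals came from 1 family and collection took 4 passes, but the labels give neither the family nor the pass of an animal. The sample-sheet numbers in the sample titles rise in 4 runs, of 18, 18, 17 and 31 animals, and these runs were used as the only grouping of that kind in the labels. They are not known to be the passes. Libraries held 24118965 to 42036566 counts, with a median of 31573088.5. All 20 central amygdala neuron markers had counts, among them Prkcd (median 18.6 CPM), Tac2 (21.6 CPM) and Gad2 (315 CPM). In 4 libraries the median correlation with the others was under 0.92, namely male replicates 15 and 35 and female replicates 19 and 42, and the results below were also computed without them.

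A eukaryotic ribosome carries 1 copy of nearly every ribosomal protein, so cells make these proteins in matched amounts. Many of their mRNAs begin with a run of pyrimidines, the terminal oligopyrimidine (TOP) tract, through which mTORC1 signalling controls their translation. Mammalian genomes hold many processed copies of these genes, most of them pseudogenes, because the abundant mRNAs are readily reverse transcribed. In neurons, ribosomes work in the cell body and also in dendrites, where local protein synthesis takes part in plasticity.

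The start regions of 54 members were found in the RefSeq promoter table (GRCm38.p6), with 250 bases before and 50 from the start. A run of at least 6 pyrimidines lay across or within 2 bases of the start in 20 of the 54 (37%), against 14.4% of all 27025 promoters of the table. The motif CCGGAAG, a binding sequence of ETS factors, stood on either strand in 21 of 54 (38.9%) and in 9.12% of all promoters. GGGCGG, the core of the Sp1 box, was in 32 (59.3%) and 35.9%, AAGATGGC in 4 (7.41%) and 2.88%, and TATAAA in 4 (7.41%) and 14.2%. AAGATGGC holds the core bound by YY1. None of these 4 motifs contains another, and matches are of letters in RefSeq windows, which can begin apart from the start used in the CeA. The following 60 bases, 35 before the start and 25 from it, show 3 of the members that varied most like the rest, followed by 3 that did not, with the pyrimidine run at the start in capitals. All are given 5′ to 3′ along the gene.
Rpl11 (chr4:136053369-136053428, minus strand): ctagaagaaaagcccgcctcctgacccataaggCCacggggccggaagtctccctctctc
Rpl27a (chr7:109519160-109519219, plus strand): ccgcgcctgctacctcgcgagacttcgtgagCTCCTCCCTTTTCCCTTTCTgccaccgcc
Rpl38 (chr11:114668545-114668604, plus strand): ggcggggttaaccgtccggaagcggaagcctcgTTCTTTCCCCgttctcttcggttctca
Rpl7a (chr2:26910772-26910831, plus strand): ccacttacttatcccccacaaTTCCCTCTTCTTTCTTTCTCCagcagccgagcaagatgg
Rpl14 (chr9:120571482-120571541, plus strand): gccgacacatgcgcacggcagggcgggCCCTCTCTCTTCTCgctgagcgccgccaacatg
Rpl26 (chr11:68901531-68901590, plus strand): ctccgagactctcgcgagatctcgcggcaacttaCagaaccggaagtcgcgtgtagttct
The run was 20 bases in Rpl27a, 10 in Rpl38 and 2 in Rpl11, and 21 in Rpl7a, 14 in Rpl14 and 1 in Rpl26. Among these 6 its length did not sort the members that varied with the rest from those that did not. Of others not shown, it was 5 in Rpl19, which varied with the rest. In members that did not, it was 6 in Rpl34, 4 in Rpl35a, 4 in Rps2 and 1 in Rps15. The relation over all 54 members was not tested.

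Ribosomal protein mRNAs made up 0.831% to 2.2% of the counts of a library, with a median of 1.26%. Median levels of the members ranged from 10.5 to 564 CPM. The highest in CPM was Rpl4, a 60S protein, at 449 to 803 CPM with a median of 564. Scaled to the exon length in the table, Rps27 (925 CPM per kb), Rps15 (583), Rps12 (435), Rps29 (405), Rpl4 (396), Rpl8 (379), Rpl32 (359), Rps21 (312), Rps23 (254) and Rpl17 (244) stood highest. Rpl35a (11.2 CPM per kb), Rps27l (12.9), Rps4l (16.1), Rpl36al (17.6) and Rpl30 (18.9) stood lowest. These lengths are of all annotated exons together, from 255 to 6262 bases, and so differ more than the mature mRNAs do. The median was 140 CPM per kb in the 40S set and 86 in the 60S set, with ranges that overlapped.

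At the threshold, Rps27l (10.2 CPM on total counts), a paralog of Rps27, and Rps4l (15.1), a paralog of the X-linked Rps4x, lay just inside, and Rpl29 (7.02) just outside. The other names below it were Rpl37rt (0.594), Rps27rt (0.392), Rpl3l (0.325), Rpl24 (0.252), Rpl39l (0.0348) and Rpl10l (0). Rpl24, which encodes a 60S protein of all cells, has 3 annotated copies in the table, 1 of them identical over its coding sequence. Of the cytosolic ribosomal protein genes that the symbol rule misses, Rplp1, of the ribosomal stalk, had a median of 823 CPM and Rpsa, a 40S protein, 494 CPM.

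The members rose and fell together from animal to animal. Over 2628 pairs of members the median Pearson r of log2 CPM across the 84 animals was 0.738, and 2618 pairs were above 0. For all other genes with a median CPM of 10 or more the median pair r was 0.0029. A first principal component held 71.8% of the members' variance and the second 4.62%. Within single runs the first held 67.7% to 75.6%, in females alone 69%, in males alone 74.6%, and with sex and run removed 71.1%. The values share libraries and scaling, and r is given as a description.

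Each animal was given a member score, the mean z-score of log2 CPM over the 73 genes. Rpl11, a protein of the 5S particle that can bind Mdm2, had r = 0.982 with the mean of the other members, the highest. Rpl19 (0.961), Rpl32 (0.961), Rpl27a (0.957), Rpl38 (0.948), Rpl35 (0.946) and Rpl13a (0.945) were also among the highest. The median r was 0.881, and 54 of 73 were above 0.8. The median r was 0.87 in the 40S set and 0.886 in the 60S set, a difference that was not tested.

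The lowest scores were those of female replicate 27 (-1.63), male replicate 20 (-1.42) and female replicate 22 (-1.36), all of run 3. The highest were those of male replicate 35 (2.23), female replicate 41 (2.09) and female replicate 42 (1.58), all of run 4. In these orders Rpl11 had 378, 367 and 308 CPM in the 3 highest animals, against 148, 147 and 148 CPM in the 3 lowest. Rpl32, a 60S protein, had 331, 336 and 275 CPM in the highest, against 138.1, 132.9 and 121 CPM in the lowest. The sets do not overlap for Rpl11 or Rpl32, since the score that chose them is made of these genes. Total counts of these 6 libraries were between 29481674 and 36051096, within the range of the rest. The typical member varied by a factor of 2.78 between its lowest and highest animal.

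**Figure D1:**
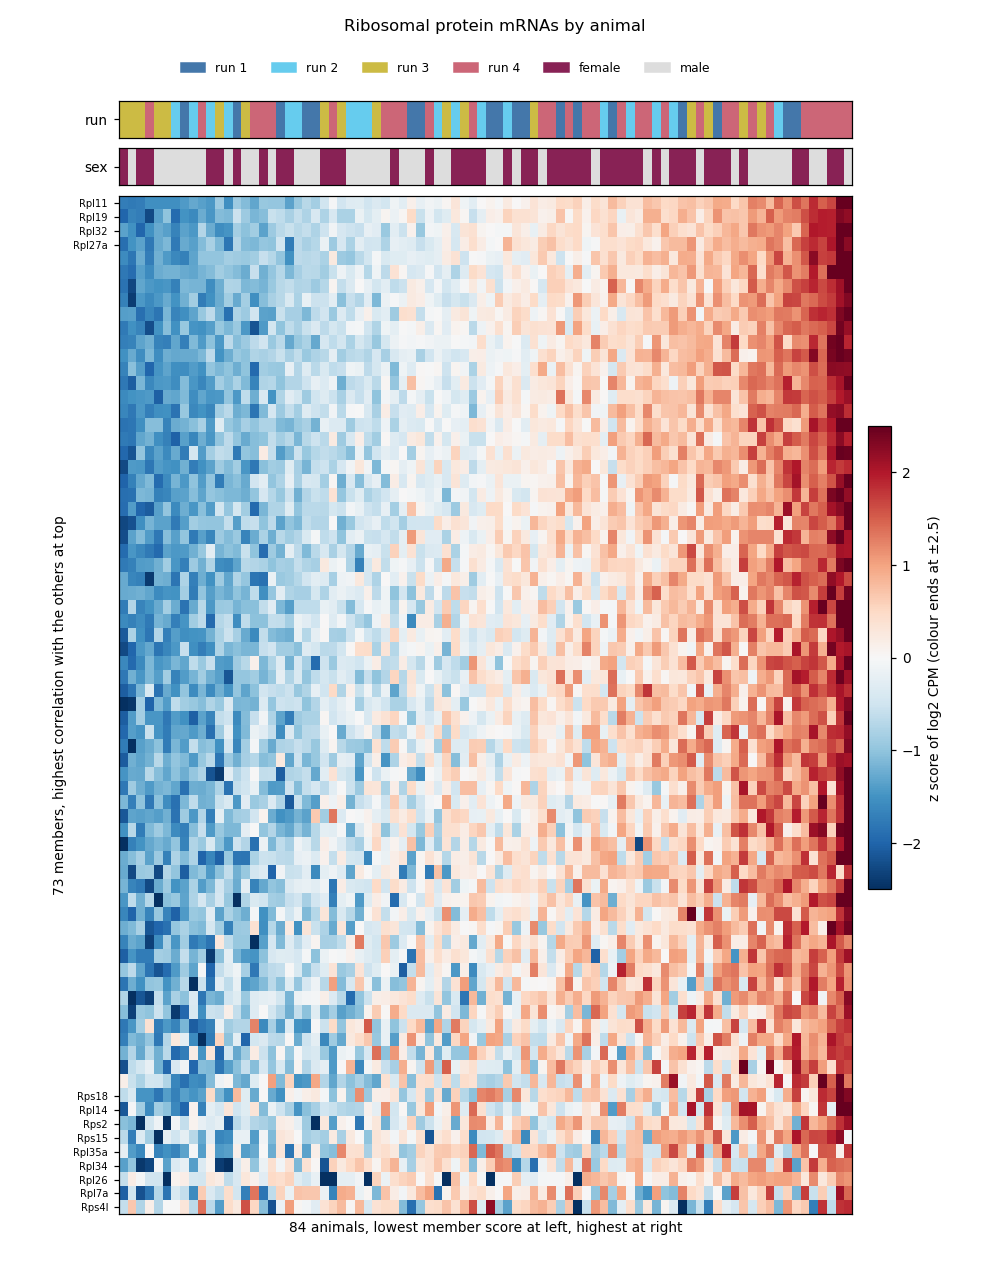
Each row is a ribosomal protein gene and each column an animal, and colour gives the z-score of log2 CPM. A few rows are labelled. Rows run from the highest correlation with the other members at the top (Rpl11, 0.982) to the lowest (Rps4l, 0.082), and columns from the lowest member score to the highest, with run and sex above. Most rows pass from blue to red together, and the bottom rows do not.

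The genes outside the rule whose log2 CPM followed the score most closely over the 84 animals were these. Pfdn5, a prefoldin subunit, had r = 0.967, Eef1b2, an elongation factor subunit, 0.944, Rplp1, a stalk protein of the ribosome, 0.943, and Naca, which binds nascent chains, 0.937. Ndufb5 (0.933), Gnb2l1 (0.929), the table's symbol for the ribosomal protein Rack1, Use1 (0.928), Snrpe (0.926), Fis1 (0.925) and Ndufa6 (0.922) completed the 10 highest. The 5 lowest were Dido1 (-0.93), Baz2a (-0.918), Setd5 (-0.91), D10Bwg1379e (-0.909) and Faxc (-0.908).

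The relation of a gene to the score went with its length. Among the other genes with a median CPM of 10 or more, split into 5 bins by length, the shortest bin (57 to 2440 bases) had a median r of 0.473, and 88.4% of its genes were above 0. The longest bin (7187 to 41324 bases) had a median r of -0.426, and 15.4% were above 0. The 5 genes with the lowest r had 8216 to 13307 exon bases, and the members a median of 1464. The part of length, RNA quality or section in the co-variation was not tested, and the RNA quality score of an animal is not given in the sources used here.

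**Figure D2:**
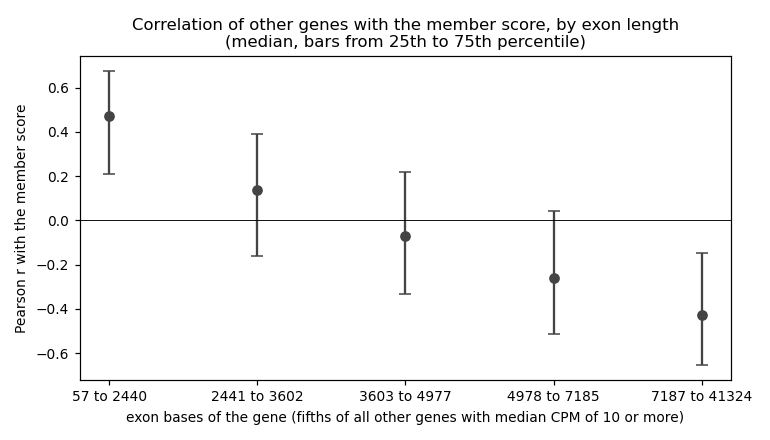
Points give the median Pearson r with the member score over genes outside the rule, in 5 bins by exon length, and bars span the quartiles. The median falls at each step, from 0.473 in the shortest bin to -0.426 in the longest.

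Lists of related genes were scored in the same way and set beside the members. The 10 cytosolic ribosomal protein genes outside the rule had a list score with r = 0.948, all 10 with positive r, from 0.156 for Rps3a1 to 0.943 for Rplp1. Elongation factors and other TOP mRNAs had 0.96 (20 of 23 genes positive), mitochondrial ribosomal proteins 0.928 (75 of 76) and nuclear-encoded oxidative phosphorylation 0.912 (82 of 83). Initiation factors had 0.682 (25 of 32) and ribosome biogenesis genes 0.652 (36 of 50). The mTORC1 axis and TOP regulators had -0.321 (16 of 36) and p53 targets of ribosomal stress -0.216 (4 of 13).

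Cell type lists had lower r with the score than the ribosomal protein, translation factor, ribosome biogenesis and oxidative phosphorylation lists. Microglia genes had r = 0.484 (12 of 16 positive), central amygdala neuron genes 0.38 (19 of 20), myelinating oligodendrocyte genes 0.367 (12 of 12) and cortical and basolateral excitatory neuron genes -0.314 (1 of 14). Astrocyte (0.113), striatal medium spiny neuron (0.075), choroid plexus (-0.087), ependymal (-0.127), erythrocyte (0.126) and endothelial and mural genes (-0.216) were nearer to 0, as were nuclear-retained long RNAs (0.093). In bulk tissue, more cells of a type and more RNA per cell cannot be told apart. The part of these cell types in the score was not tested.

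A few members departed from the shared pattern. The 8 with the lowest r with the other members were Rps4l (0.082), Rpl7a (0.398), Rpl26 (0.406), Rpl34 (0.535), Rpl35a (0.545), Rps15 (0.631), Rps2 (0.643) and Rpl14 (0.651), with Rps18 (0.659) next. Of these, 5 were not low in level: Rps15 had a median of 367 CPM, Rps2 169.02, Rpl7a 166.9, Rpl14 142.995 and Rpl26 138.1. They were set beside their near-identical copies in the genome. A copy was an annotated transcript of another gene with at least 95% identity over at least 80% of the member's coding sequence in GENCODE vM21. Of the 73 members, 64 had at least 1 such copy in the table, 381 copies in all, and reads could be split between a member and its copies, so these values are uncertain.

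Rpl26, a 60S protein that also binds p53 mRNA, was split in level. In 7 animals it lay between 5.26 and 10.4 CPM (median 8.53), and in the other 77 between 68 and 364 CPM (median 143.1), with no animal between. The 7 animals, 3 females and 4 males, came from all 4 runs. Its copy Gm15772, annotated as a processed pseudogene on chromosome 5, differs at 2 of 435 coding bases and lay at 69.9 to 113 CPM (median 94.5) in those 7. In the other 77 it ranged from 0.0312 to 101 CPM (median 37.2), with no animal between 1.35 and 33.7 CPM. Among these 77, Rpl26 had 117 to 364 CPM where the copy was at 1.35 CPM or less. Where the copy was at 33.7 CPM or more, Rpl26 had 68 to 213 CPM, so the ranges overlapped. The sum of Rpl26 and Gm15772 was 75.2 to 123 CPM in the 7 animals and 104 to 364 CPM in the 77. Rpl26 lies on chromosome 11 from 68901583 to 68906989 and Gm15772 on chromosome 5 from 3236431 to 3236868 (GRCm38).

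Rps15, a 40S protein and the second highest member per kb, stood against its 1 copy, Rps15-ps2 on chromosome 6 (58017506 to 58017943). In 36 animals the copy had 19.7 to 109 CPM (median 33.8), and there Rps15 had 141 to 489 CPM (median 298). In the other 48 the copy had 0.0613 to 0.552 CPM, and Rps15 had 277 to 721 CPM (median 403). No animal had a copy level between 0.552 and 19.7 CPM, while Rps15 itself overlapped between both sets. Rps18, a 40S protein near the decoding site, ranged from 44.7 to 292 CPM, and its 3 copies, chiefly Gm10260 on chromosome 13, which GENCODE lists as protein-coding, from 0 to 106 CPM in sum. Coding windows of 60 bases are shown to let the pairs be compared, each the window with the most differences, with the differing bases in capitals (GENCODE vM21 transcripts, 5′ to 3′).
Rpl26, from coding base 118: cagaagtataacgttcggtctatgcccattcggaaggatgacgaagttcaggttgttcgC
Gm15772, the same window: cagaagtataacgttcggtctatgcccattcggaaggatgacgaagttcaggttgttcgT
Rps15, from coding base 175: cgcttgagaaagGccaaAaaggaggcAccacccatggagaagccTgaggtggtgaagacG
Rps15-ps2, the same window: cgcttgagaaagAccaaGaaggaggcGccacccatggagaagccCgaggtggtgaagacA
Rps18, from coding base 312: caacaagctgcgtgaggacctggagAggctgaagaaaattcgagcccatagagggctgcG
Gm10260, the same window: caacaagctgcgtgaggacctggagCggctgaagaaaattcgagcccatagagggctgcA
The whole coding sequences differ at 2 of 435 bases for Rpl26, 10 of 435 for Rps15 and 4 of 456 for Rps18.

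Counts of each member were then summed with those of its copies, a step added after the data were seen. The r of Rpl26 with the other members was 0.808 with its copies and 0.406 without, and that of Rps18 was 0.897 with and 0.659 without. For Rps15 it was 0.776 with and 0.631 without, and for Rps6, the S6 kinase substrate, 0.923 with and 0.857 without. Rpl7a changed little (0.451 with and 0.398 without), as did Rpl34 (0.514 and 0.535), and Rps2 moved the other way (0.502 and 0.643). Its copies, chiefly Rps2-ps13 on the X chromosome, ranged from 0.383 to 130 CPM in sum. Of the 62 members with counts in at least 1 copy, r was higher with the copies in 47 and lower in 15, and the other 11 could not change. Many of these changes were slight, as for Rpl36a (0.82537 with and 0.82533 without). The median r over the 73 members was 0.892 with the copies and 0.881 without. The median pair r was 0.765 with the copies.

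**Figure D3:**
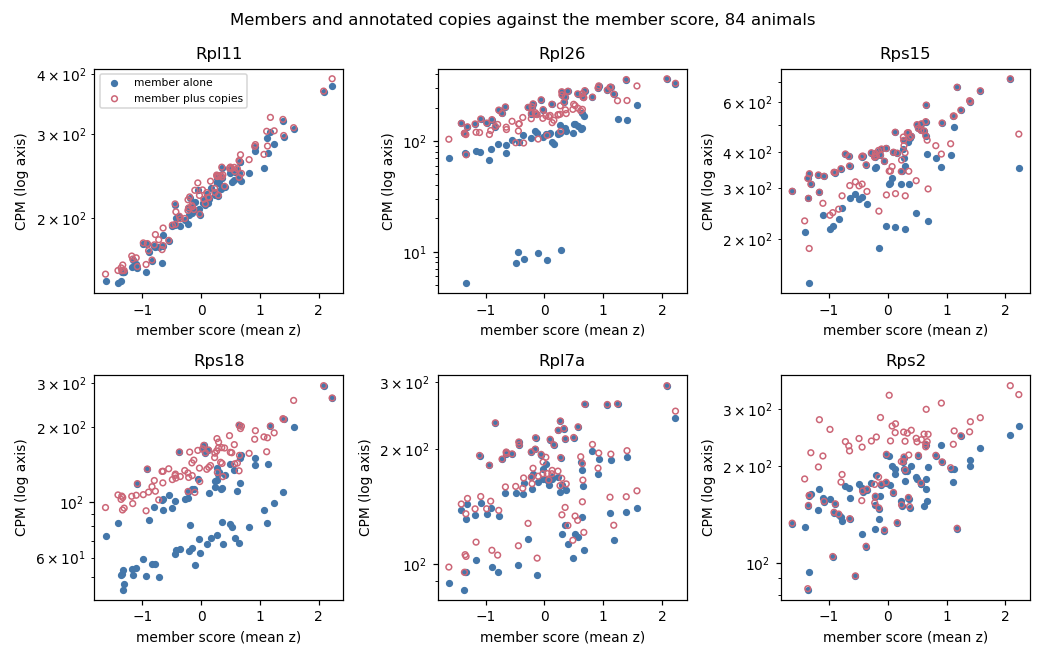
Each panel plots a member's CPM (log axis) against the member score in 84 animals, alone (filled) and summed with its annotated copies (open). Rpl11 follows the score either way, Rpl26 alone has 7 animals at 5.26 to 10.4 CPM whose sums, 75.2 to 123 CPM, lie at the low end of the others, Rps15 and Rps18 draw closer to 1 line in the sum, Rpl7a does so only slightly, and Rps2 spreads.

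What was left of each departing member after the member score was removed was set against all genes. That score includes the departing member itself. Rpl7a, a 60S protein, ran opposite to its copies Gm16477 (r = -0.825) and Gm5619 (-0.821) and to its neighbour Surf6 (-0.823). It ran with Rexo4, which lies 0.0428 Mb away on chromosome 2 (r = 0.865), and with Egfl7, 0.331 Mb away (0.702). Rps15 ran opposite to Rps15-ps2 (-0.821), Rpl26 opposite to Gm15772 (-0.628) and with Eif4a1, 0.765 Mb away (0.564), and Rpl14 opposite to Rpl14-ps1 (-0.612) and with Acaa1a, 1.23 Mb away (0.699). The other departing members with copies did not show this against their summed copies, with r of 0.197 for Rps2, 0.044 for Rpl34 and -0.084 for Rpl35a. Over the 31 members whose copies had a median of at least 1 CPM in sum, this r was below 0 in 16, with a median of -0.015. It was below -0.3 in 11 of them. Members with copies under that level were not counted, among them Rps15 (-0.821), Rps6 (-0.723) and Rps28 (0.411). Of the 3 closest genes in each direction for each of the 8 members, 5 of 24 in the opposite direction were the member's own copies. In the same direction 11 of 24 were on the member's chromosome and 9 within 5 Mb.

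For Rps4l, Rpl34, Rpl35a and Rps2 none of these partners was a copy found here or lay within 5 Mb. Rps4l had 3.39 to 42.7 CPM, and its closest gene was Top1mt (r = 0.58). No coding sequence was found for Rps4l in GENCODE vM21, so its copies were not searched for. Rpl34, a 60S protein, had 10.1 to 161.2 CPM. Rpl35a, a 60S protein mutated in Diamond-Blackfan anaemia, had 14.7 to 99.2 CPM, with closest genes at r = 0.406 and -0.421. The spread of Rps4l, Rpl34 and Rpl35a between animals, with SDs of 0.73, 0.93 and 0.74 on the log2 scale, was over 2 times that of the median member (0.32). Whether founder alleles at these genes differ between the animals was not tested, since genotypes were not used here.

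The first question of the design was whether expression goes with ethanol preference. No member passed for any measure of preference, in all animals or in either sex. In edgeR's quasi-likelihood test with Benjamini-Hochberg adjustment over 16320 genes, 0 of 73 members were called for mean preference in all animals, where 0.0% of all genes were. The count at an unadjusted p under 0.05 was 0 members, against 3.94% of all genes. DESeq2 and limma-voom also called 0 members for it, for every other measure of preference, for sex and for their interaction.

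Rpl11, the member closest to the rest, shows the levels behind this. In the 28 animals with the highest mean preference it had 147 to 367 CPM (median 212), in the middle 28, 148 to 304 CPM (223.5), and in the lowest 28, 154.5 to 378 CPM (217.7). The 3 sets overlapped almost fully. Slopes were below 0 for 61 of 73 members and 50.8% of all genes, with a median of -0.056 in log2 CPM per 0.5 higher preference among members and -0.0016 over all genes. Without the 4 libraries that correlated least with the others, 50 members were below 0 with a median of -0.020, and with run as a term 69 with a median of -0.12. The median SE of a member's slope was 0.11. Rpl30, a 60S protein, was among the members with the smallest p, with a slope of 0.18 ± 0.13 (SE, edgeR adjusted p = 0.9995), as were Rps4l, Rps15a and Rps3.

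In females, 43 of 73 slopes on mean preference were below 0 with a median of -0.011, against 0.0048 over all genes. Counts of slopes below 0 ran from 33 to 61 over the alternative scalings, predictors and left-out libraries, so the direction in females was not stable. Rps4l had the smallest p, with a slope of 0.85 ± 0.27 (unadjusted p = 0.0027, edgeR adjusted p = 0.477). In males, 69 of 73 were below 0 with a median of -0.1, against 0.0028 over all genes. The 2 libraries with the highest member score were male replicate 35 and female replicate 41. Without male replicate 35 alone, 51 slopes in males were below 0, with a median of -0.014. Rps4l had a slope of -0.60 ± 0.36 in all 41 males. By unadjusted p (under 0.05) Rps4l was the 1 member in females, against 6.95% of all genes, and males had 0, against 1.65%.

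The difference between the sexes was tested by its own term. It called 0 members, where 0.0% of all genes were called, and 2 had an unadjusted p under 0.05, against 3.24%. These were Rps4l, with a male minus female slope of -1.45 ± 0.45 (unadjusted p = 0.0019, edgeR adjusted p = 0.999), and Rps18 (-0.98 ± 0.44, unadjusted p = 0.029, edgeR adjusted p = 0.999). Male minus female slopes were below 0 for 63 of 73 members with a median of -0.091, but for 17 with a median of 0.055 without the 2 libraries with the highest score.

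Preference in week 1, at the start of exposure, gave no call. Of 73 members 0 were called, against 0.0306% of all genes, and 0 had an unadjusted p under 0.05, against 3.25%. Of the slopes, 58 were below 0, with a median of -0.039. Without the 4 libraries that correlated least with the others, 30 were below 0 and the median was 0.013. Rpl4 had the smallest p (-0.075 ± 0.059, edgeR adjusted p = 0.9999), and Rpl35a, Rpl13, Rps3 and Rps16 followed.

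Week 13 preference was the measure closest in time to dissection. Slopes were below 0 for 69 of 73 members in all animals (50.3% of all genes), with a median of -0.094, for 62 in females (median -0.071) and for 71 in males (-0.12). Without the 4 least correlated libraries these were 59 members in all animals (median -0.049). Without those of the same sex they were 53 in females (-0.041) and 63 in males (-0.063). The background of calls was 0.0% in all animals, 0.0368% in females and 0.0% in males, and 0 members were called in each. At an unadjusted p under 0.05 there was 1 member in all animals (6.0% of all genes), 1 in females (8.67%) and 2 in males (3.74%). In females this was Rps4l (0.60 ± 0.22), and in males Rpl35a (-0.78 ± 0.29) and Rps15 (-0.44 ± 0.17). Rps15 had the smallest p in all animals, with a slope of -0.30 ± 0.11 (unadjusted p = 0.0092, edgeR adjusted p = 0.664). It had 141 to 721 CPM (median 354.5) in the 28 animals with the highest week 13 preference, 185.9 to 673 CPM (377) in the middle 28, and 234.5 to 605 CPM (390) in the lowest 28. Those ranges overlap, and the medians differ by less than the range of any set.

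With run as a term, 43 of 73 members had an unadjusted p under 0.05 for week 13 preference in all animals, against 11.0% of all genes, and 0 passed after adjustment. In females alone there were 6 such members, against 11.2% of all genes, and in males alone 4, against 4.8%. The median slope in all animals was then -0.17, with 72 of 73 below 0. Rps15 (-0.38 ± 0.12), Rps29 (-0.27 ± 0.092), Rps7 (-0.28 ± 0.095), Rpl31 (-0.29 ± 0.099) and Rps27 (-0.33 ± 0.11) had the smallest p, all with an edgeR adjusted p of 0.417. Members vary together, so these are not 43 independent results.

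The member score was set against preference as a description. Its Pearson r was -0.04 with mean preference, -0.045 with week 1 and -0.095 with week 13 preference over 84 animals (Spearman rho -0.063, -0.11 and -0.09). For week 13 it was -0.017, 0.123, -0.586 and -0.244 in runs 1 to 4, -0.114 in females and -0.135 in males, and -0.078 when the 2 animals with the most extreme preference were left out. With sex and run removed it was -0.243. The relation was thus largest in run 3, of 17 animals, and of the other sign in run 2. The difference between runs was not tested.

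**Figure D4:**
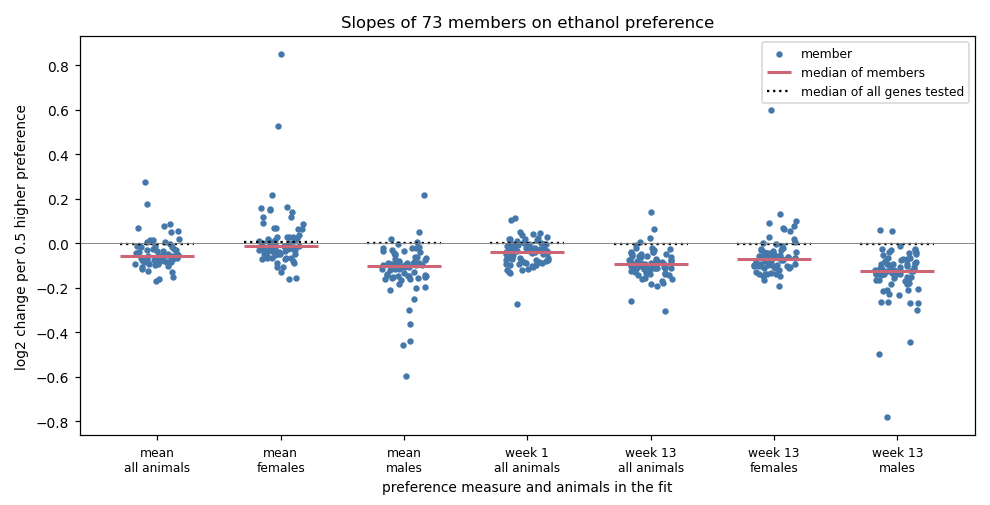
Each point is a member's slope, the log2 change per 0.5 higher preference, for 7 combinations of preference measure and animals. Red bars mark the median of the 73 members and dotted bars the median of all genes tested. Medians of members lie between -0.011 (mean preference, females) and -0.12 (week 13, males), and Rps4l is the high point in females (0.85) and the low one in males (-0.60) for mean preference.

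For week 13 preference in all animals 0 genes were called in each related list. The median slope was -0.084 for the 10 ribosomal protein genes outside the rule (9 below 0), -0.051 for elongation factors and other TOP mRNAs (21 of 23), -0.047 for mitochondrial ribosomal proteins (69 of 76) and -0.075 for oxidative phosphorylation (78 of 83). It was -0.011 for initiation factors (18 of 32), -0.024 for biogenesis genes (34 of 50), -0.013 for the mTORC1 axis (19 of 36) and 0.0094 for p53 targets (6 of 13). No cell type marker was called for week 13 preference either. Choroid plexus genes had a median slope of 1.55, with 14 of 14 above 0 and 13 of 14 at an unadjusted p under 0.05, and ependymal genes 0.88, with 15 of 15 above 0 and 12 of 15, beside 6.0% of all genes. Cortical and basolateral neuron genes had 0.22 (10 of 14 above 0), erythrocyte genes 0.094 (5 of 5) and endothelial and mural genes 0.037 (8 of 13). Central amygdala neuron genes had -0.24 (18 of 20 below 0), oligodendrocyte genes -0.24 (12 of 12), microglia genes -0.15 (16 of 16), striatal neuron genes -0.11 (13 of 15) and astrocyte genes -0.047 (10 of 13). Their part in the members' slopes was not tested.

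Sex by itself was next compared, female over male at equal mean preference. No member was called, where 0.0858% of all genes were, and 1 had an unadjusted p under 0.05, against 4.15%. Log2 differences were above 0 for 65 of 73 members with a median of 0.052, against -0.0045 over all genes. Rpl41, the shortest ribosomal peptide, had 162.2 to 403 CPM (median 252) in females and 150.3 to 376 CPM (median 218.8) in males, ranges that overlapped, a difference of 0.14 ± 0.069 (edgeR adjusted p = 0.943). Rps15 (0.18 ± 0.096), Rpl37a, Rpl21 and Rps4l (-0.27 ± 0.16) followed.

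Of the members, 4 are X-linked, and 0 of them were called. Rpl36a, whose autosomal paralog is Rpl36al, had a median of 83 CPM in females and 70.9 CPM in males, a difference of 0.12 ± 0.097. Rps4x had 247 CPM in females and 230 CPM in males (0.054 ± 0.068). Rpl10, among the last to join the 60S subunit, had 186.6 CPM in females and 176.2 CPM in males (0.033 ± 0.052). Rpl39, of the exit tunnel, had 65.5 CPM in females and 63.9 CPM in males (0.012 ± 0.076). Their median was 0.043, against 0.052 for the 69 autosomal members and -0.027 for all 587 X-linked genes tested.

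Members were called between the runs of sample-sheet numbers. In a test of 3 terms with sex in the model, 35 of 73 members (47.9%) passed an edgeR adjusted p of 0.05, against a background of 21.7% of all genes. At an unadjusted p under 0.05 there were 51, against 37.8%. By the sign of run 4 over run 1, 32 of the 35 were higher and 3 lower, where 12.4% of all genes were called and higher and 9.34% called and lower. The 3 terms were tested together, so a call does not show that run 4 differs from run 1. Among the 32, Rpl12 had 0.018 for run 4 over run 1 and -0.247 for run 3 over run 1, and Rpl13a had 0.037 and -0.301. Of the 35, 31 were below run 1 in run 3 and 27 in run 2, where 1916 and 1864 of the 3543 called genes were. Medians over all members were -0.082 for run 2 over run 1, -0.17 for run 3 over run 1 and 0.12 for run 4 over run 1, beside 0.012, 0.0046 and 0.023 over all genes. The last of these was 0.079 both without the 2 libraries with the highest score and without the 4 least correlated, with 16 and 14 members below 0 in place of 6.

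Rps7, a 40S protein, had the smallest p (6.97e-06, edgeR adjusted p = 0.00098). It had 142.97 to 293 CPM (median 202) in run 1, 121 to 235.6 CPM (168.9) in run 2, 106 to 259 CPM (153.02) in run 3 and 130.5 to 340 CPM (222.04) in run 4. Rpl31, a 60S protein, had medians of 164.8, 158.6, 127.2 and 199.98 CPM in runs 1 to 4 (edgeR adjusted p = 0.0015). The ranges of the runs overlapped for both, with run 3 lowest and run 4 highest in median. Rpl15 (edgeR adjusted p = 0.0025), Rpl7 (0.0033) and Rpl5, the partner of Rpl11 in the 5S particle (0.0041), followed. Rps19, the 40S protein most often mutated in Diamond-Blackfan anaemia, had medians of 114, 83.4, 78.7 and 125 CPM (0.014). Rps14, lost in the 5q- syndrome, had 357, 298, 254 and 353 CPM (0.0069).

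Other members with known special roles also differed by run. Rps27a, made as a fusion with ubiquitin, had medians of 210.3, 193.04, 164.4 and 223.2 CPM in runs 1 to 4 (edgeR adjusted p = 0.034), and Rps3, at the mRNA entry, passed at 0.02. Rpl3, near the peptidyl transferase centre, passed at 0.023, Rpl13a, known from the interferon response, at 0.017, and Rpl38, needed for the translation of Hox mRNAs in mouse embryos, at 0.024. The 3 called members that were lower in run 4 than in run 1 were Rpl41 (-0.011), Rps14 (-0.0063) and Rpl22 (-0.064), each with its lowest fitted level in run 3. For these 3 the run 4 over run 1 difference itself is near 0. Without the 2 libraries with the highest score Rps27a (edgeR adjusted p = 0.084), Rpl3 (0.073) and Rpl38 (0.078) no longer passed.

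Member scores averaged 0.024 ± 0.654 in run 1 (SD, n = 18), -0.231 ± 0.668 in run 2 (n = 18), -0.42 ± 0.856 in run 3 (n = 17) and 0.35 ± 0.881 in run 4 (n = 31). Scores ran from -1.18 to 1.18 in run 1, -1.31 to 1.12 in run 2, -1.63 to 0.924 in run 3 and -1.35 to 2.23 in run 4, so the runs overlapped. In females the means were 0.199, 0.0087, -0.269 and 0.276, and in males -0.151, -0.47, -0.635 and 0.42. The run by sex term called 0 members, where 0.0% of all genes were called, and 0 members had an unadjusted p under 0.05, against 2.57%. The median share of counts was 1.26%, 1.17%, 1.15% and 1.4% in runs 1 to 4.

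The count of calls fell when animals were left out, and the share of all genes called fell too. Without the 2 libraries with the highest score, both of run 4, the count was 21 of 73, with 16.7% of all genes called. All 21 were among the 35, and Rpl11 (edgeR adjusted p = 0.11), Rpl19 (0.082) and Rps18 (0.074) no longer passed. These 2 libraries were chosen by the members' own score in the run with the highest mean, so their removal lowers the members' run 4 level by construction. In females alone the count was 0, with 0.0184% of all genes called, and in males alone 1, with 1.21% called. At an unadjusted p under 0.05 there were 8 members in females alone, against 16.0% of all genes. In males alone there were 44, against 22.8%. Fits in 1 sex hold fewer animals, so their counts do not show whether the calls rest on a few of them. Library, dissection and collection day cannot be told apart from the run, and drinking differed too, with a mean preference of 0.215, 0.297, 0.167 and 0.266 in runs 1 to 4.

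**Figure D5:**
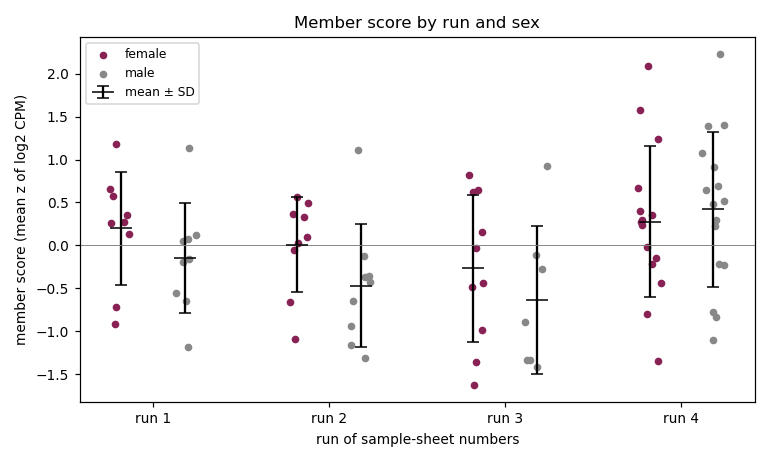
Points are animals, by run of sample-sheet numbers and sex, and the y axis is the member score, the mean z-score of log2 CPM over 73 genes. Bars give mean ± SD. Run 3 has the lowest means (-0.269 in females, -0.635 in males) and run 4 the highest (0.276 and 0.42), with wide overlap.

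Counts in other lists, again by the sign of run 4 over run 1, are read beside the 12.4% of all genes called and higher and the 9.34% called and lower. Of elongation factors and other TOP mRNAs 11 of 23 were called and higher in run 4 than run 1, led by Eef1a1 (0.24, edgeR adjusted p = 0.001), and 0 called and lower. For ribosomal protein genes outside the rule the counts were 4 and 1 of 10, for initiation factors 10 and 4 of 32, for biogenesis genes 12 and 8 of 50, for mitochondrial ribosomal proteins 14 and 12 of 76 and for oxidative phosphorylation 23 and 10 of 83. The mTORC1 axis had 2 and 6 of 36, together 22.2% beside 21.7% of all genes, and p53 targets 0 and 4 of 13, led by Btg2 (-0.80, edgeR adjusted p = 0.0013).

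Cell type lists ranged from no call to more than the background. Central amygdala neuron genes had 10 of 20 called and higher in run 4, led by Prkcd (1.37) and Tac2 (1.34), with a median of 0.57. Their mean list score was 0.295 in run 4 (range -1.06 to 1.24), against -0.505 in run 1 (-1.21 to 0.857). Myelinating oligodendrocyte genes had 6 of 12 called and higher, with a median of 0.78 and list scores of 0.151 in run 4 (-2.33 to 2.02), against -0.653 in run 1 (-1.56 to 1.22). Nuclear-retained long RNAs had 8 of 12 called and higher (median 0.41), and choroid plexus genes 0 of 14 (median 1.28). There were 0 calls among 15 striatal neuron genes (median 0.51), 15 ependymal genes (0.77), 16 microglia genes (0.034) and 5 erythrocyte genes (-0.66). Astrocyte genes had 1 of 13 called, and lower (-0.047), cortical and basolateral neuron genes 1 of 14, and higher (median -0.34, 13 of 14 below 0), and endothelial and mural genes 1 higher and 3 lower of 13 (0.018). None of the defining markers in these lists was at 0 in median, and their part in the run differences of the members was not tested.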

How the data were processed

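Members, lists and alternatives were chosen with earlier results of these data known. The deposited values were raw counts of reads per gene, per the labels' protocols and the table header. The submitters' processing notes name FastQC, STAR, Subread, featureCounts 1.6.0 and DESeq2, and GRCm38 (mm10). The strand setting is not given in the sources used here, nor is the annotation release, so overlapping antisense genes cannot be told apart. The table also held 8 columns of no sample (3 undetermined, 5 empty), which were not used. Replicate numbers follow the order of listing and pair nothing. Animals of 1 family are not marked, and p-values measure the spread between these animals.

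CPM was computed on total counts for the rule and with TMM factors elsewhere, and log2 CPM with a prior count of 2. Genes passed edgeR's filterByExpr with sex as the group, over all 84 animals, with a minimum count of 10 (16320 genes, all 73 members). edgeR 4.0.16 fitted robust quasi-likelihood models (Benjamini-Hochberg, threshold 0.05), with sex as a term where both sexes entered. Slopes are per 0.5 preference, and each SE was the absolute coefficient divided by the root of its F value. DESeq2 1.42.0 and limma-voom 3.58.1 were alternatives, with other scalings, no filter, run as a term, rank, intake and, added after the data were seen, left-out libraries and summed copies. Scripts were tested on simulated data. Copies were found with blastn (BLAST 2.17.0) in GENCODE vM21 transcripts, and start sequences are from RefSeq. Genes were named by a fixed rule: highest and lowest length-scaled levels, highest and lowest r, the 5 smallest p per comparison, X-linked members and members of known special role. Gene lists were read by symbol. A few results that this rule would name are not reported here.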

Additional observations from a re-analysis of the deposited data

How the results depend on the processing

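Calls for preference, sex and their interaction stayed at 0 members under DESeq2, limma-voom, no filter, total counts, TMM without the members, upper quartile factors, run as a term, rank, intake and both sets of left-out libraries, where each applied. For the runs, 35 members were called, beside 21.7% of all genes. Under the other tools, scalings, filter, preference term and without the 4 least correlated libraries, 26 to 38 members were called. The share of all genes called ran from 8.79% with no filter (26 members) to 24.3% under DESeq2 (37 members). The count was 0 in females alone (0.0184% of all genes) and 1 in males alone (1.21%). It was 21 without the 2 libraries with the highest score (16.7%). Both sets of left-out libraries were chosen after seeing the data. Of the 5 members with the smallest run p, none passed in females alone or males alone, and the run 4 over run 1 change of Rpl5 was -0.0053 in females alone. The median pair r was 0.71 to 0.769 under the other scalings, Spearman, sex and run removed, summed copies and left-out libraries. The r of the score moved most within runs: with mean preference to -0.452 and with week 1 preference to -0.386 in run 3, and with week 13 preference to 0.123 in run 2, -0.586 in run 3, -0.244 in run 4 and -0.243 with sex and run removed. The cause was not tested. No paired analysis was possible because replicate numbers only name animals. The lowest count of a member in a library was 90 (Rps4l), and depth limits the copies near 0 counts.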

Other observations

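Copies of the members together took 0.0206% to 0.0582% of the counts of a library, with a median of 0.0381%. Rpl21 had the most copies in the table, 40, with a summed median of 72.5 CPM beside 255 CPM for the gene itself. Named ribosomal protein pseudogenes that passed the expression filter of the fits (21 of 254) had a list score with r = 0.869 against the member score, and 21 of 21 had positive r.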
